A study of Mus musculus with 2 samples.

Results

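The expression of 39 genes of DNA replication and nucleotide supply was described in single cells of the mouse pancreatic cancer line KPCY 6419c5. The genes were chosen by symbol, from 33696 features, and each symbol matched 1 feature. All cells carried the lineage-tracing system BASELINE and had been transfected with Cas12a-ABE, an adenine base editor built on the nuclease Cas12a. Clones 76 and 84, each grown from a single sorted cell, were mixed in equal numbers after 19 days of editing and loaded as 1 library of 3′ single-cell RNA-seq. The second sample of the series, of clones 1, 32, 33, 52 and 76, was not analysed here. No unedited culture was in the library.

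Cells were divided by 2 sets of marker genes that hold none of the 39 genes, because no clone label was used. A cells had UMIs (unique molecular identifiers, 1 for each captured RNA molecule) of Pde10a, Plcb1, Galnt18, Arhgap15 and Ceacam1. B cells had UMIs of S100a7a, Rgs20, Hs6st2, Ccbe1, Ctse and Mal. At least 2 marker UMIs, and at least 3 times those of the other set, were required. Of 22178 barcodes, 21361 passed the filter on depth, gene number and mitochondrial share, and 7816 of these were A cells and 8936 were B cells. It was not determined which of the groups is which clone.

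With 1 library there is no replicate and no test, and every interval below is a 95% interval for counting error only. A cells were shallower than B cells, with a median of 4699.5 against 5440.5 UMIs, and had a higher median mitochondrial share, 3.19% against 1.89%. The ductal and epithelial list was detected in both groups, at 2750 and 7592 CPM (UMIs of a gene or list per 1000000 UMIs of the group), led by Krt18. All 10 of its genes were detected, and 6 of them had a mean of at least 10 CPM. Markers of other cell types were low. The fibroblast list stood at 2.11 and 0.929 CPM with 4 of 8 genes at 0 UMIs, the immune list at 3.35 and 1.00 CPM with 1 of 7 at 0, the endocrine list at 0.0745 and 0.0758 CPM with 3 of 6 at 0, and the acinar list at 13.7 and 4.40 CPM with 2 of 5 at 0. The endothelial list stood at 33.5 and 8.55 CPM, nearly all from Egfl7, with Kdr and Emcn at 0. The part of these lists in the differences below was not tested.

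Replication starts at origins that are licensed in G1, when the origin recognition complex, Cdc6 and Cdt1 load the ring-shaped MCM helicase onto DNA. In S phase Cdc45 and the GINS complex join MCM to unwind DNA, primase and the polymerases copy it, the Pcna clamp holds the polymerases in place, and Fen1 and Lig1 finish the fragments of the lagging strand. Nucleotides come from ribonucleotide reductase and from thymidylate synthesis and salvage. Many of these genes are transcribed at the border of G1 and S under E2F transcription factors.

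Promoters are shown for 4 of the genes, because E2F motifs are a textbook mark of genes transcribed at the border of G1 and S. The part of E2F in the levels of the 39 genes was not tested. The promoter table of RefSeq, build GRCm38.p6, held 33 of the 39 genes, with 250 bases before and 50 after the start. The motif was searched as TTTCCCGC, TTTGCCGC, TTTCGCGC or TTTGGCGC on both strands. It was found in 12 of the 33 promoters (36.4%), against 626 of 27025 promoters of all genes (2.32%). The CCAAT box was found in 21 of 33 (63.6%), against 37.9% of all promoters. Both were held by 8 of the 33, against 272 of the 27025 promoters of all genes. A match is a description of the letters and not a bound site. The 4 below have the highest mean expression among those with an E2F motif. They run 5′ to 3′ along the gene, from 250 bases before the start to 30 bases after it, and capitals mark the E2F motif on either strand.

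Mcm3 lies at chr1:20820283-20820562, Mcm7 at chr5:138171854-138172133, Rfc3 at chr5:151651179-151651458 and Mcm6 at chr1:128359676-128359955, all on the minus strand of GRCm38.p6.
Mcm3: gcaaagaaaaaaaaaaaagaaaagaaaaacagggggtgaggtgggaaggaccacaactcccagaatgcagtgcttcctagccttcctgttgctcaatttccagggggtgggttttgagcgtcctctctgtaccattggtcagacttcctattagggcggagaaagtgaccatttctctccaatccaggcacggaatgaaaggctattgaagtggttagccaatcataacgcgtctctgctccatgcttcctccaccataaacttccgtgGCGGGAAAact
Mcm7: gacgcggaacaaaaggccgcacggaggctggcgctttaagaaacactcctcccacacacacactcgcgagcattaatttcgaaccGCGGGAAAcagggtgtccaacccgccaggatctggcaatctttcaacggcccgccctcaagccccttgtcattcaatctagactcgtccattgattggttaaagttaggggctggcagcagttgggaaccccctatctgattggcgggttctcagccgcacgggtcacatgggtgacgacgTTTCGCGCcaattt
Rfc3: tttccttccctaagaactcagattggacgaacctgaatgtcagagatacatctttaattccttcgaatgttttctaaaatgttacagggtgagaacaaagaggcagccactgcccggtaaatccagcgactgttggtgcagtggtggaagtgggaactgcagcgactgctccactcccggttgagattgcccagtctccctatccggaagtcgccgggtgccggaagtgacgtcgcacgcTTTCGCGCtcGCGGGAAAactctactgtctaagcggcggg
Mcm6: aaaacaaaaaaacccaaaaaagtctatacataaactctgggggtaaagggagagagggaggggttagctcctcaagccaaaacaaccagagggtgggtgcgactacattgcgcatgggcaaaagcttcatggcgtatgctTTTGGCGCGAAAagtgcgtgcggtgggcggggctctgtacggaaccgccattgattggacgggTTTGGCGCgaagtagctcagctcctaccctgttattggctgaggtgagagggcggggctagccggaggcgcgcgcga

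Mcm6 held 3 matches, of which 2 overlap on opposite strands, so its first run of capitals is longer than 1 motif. Mcm7 and Rfc3 held 2 each, and Mcm3 held 2, of which 1 is shown and 1 lies past the printed bases. The 12 genes with the motif and the 21 without it had similar A over B ratios, with medians of 0.28 and 0.30 on the log2 scale. Between cells with high and low levels of the other genes, described further on, their median log2 ratios were 1.35 and 1.30 in A cells and 1.21 and 1.02 in B cells.

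Summed over the 39 genes, A cells had 148427 UMIs, or 3686 CPM (interval 3667 to 3704), and B cells had 155747 UMIs, or 2951 CPM (2937 to 2966). The ratio of A over B was 1.25-fold, or 0.32 on the log2 scale (0.31 to 0.33). The median ratio of all 8240 features with a mean of at least 10 CPM was itself shifted towards A, at 0.16 on the log2 scale. Relative to that shift the summed ratio was 0.17 and the median gene was 0.14, against 0.30 without centring. Of the 39 genes, 34 had a higher level in A and 5 in B, and 27 and 12 after centring. Read as intervals, 30 genes lay above a log2 ratio of 0, 5 below it, and 4 held it. Of all features 62.2% had a higher level in A, and by intervals 55.1% lay above 0 and 32.3% below.

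At least 1.5-fold higher in A were 8 of the 39 genes, and 0 were at least 1.5-fold higher in B. Among all features tested 21.8% were past 1.5-fold towards A and 11.8% towards B. The 8 genes are thus close to the background share and are no result about these genes. They were Mcm5, Mcm10, Pold1, Lig1, Dut, Tk1, Uhrf1 and Cdca7. After centring, 3 of the 39 genes, Cdca7, Lig1 and, just past the limit, Tk1, were past 1.5-fold towards A and 0 towards B, with 15.3% and 15.8% of all features. The 25th to 75th percentile of the ratio spanned 0.43 among the 39 genes and 0.73 among all features, both on the log2 scale. A filter of a mean of 10 CPM was passed by 38 of the 39 genes, all but Ung.

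**Figure D1:**
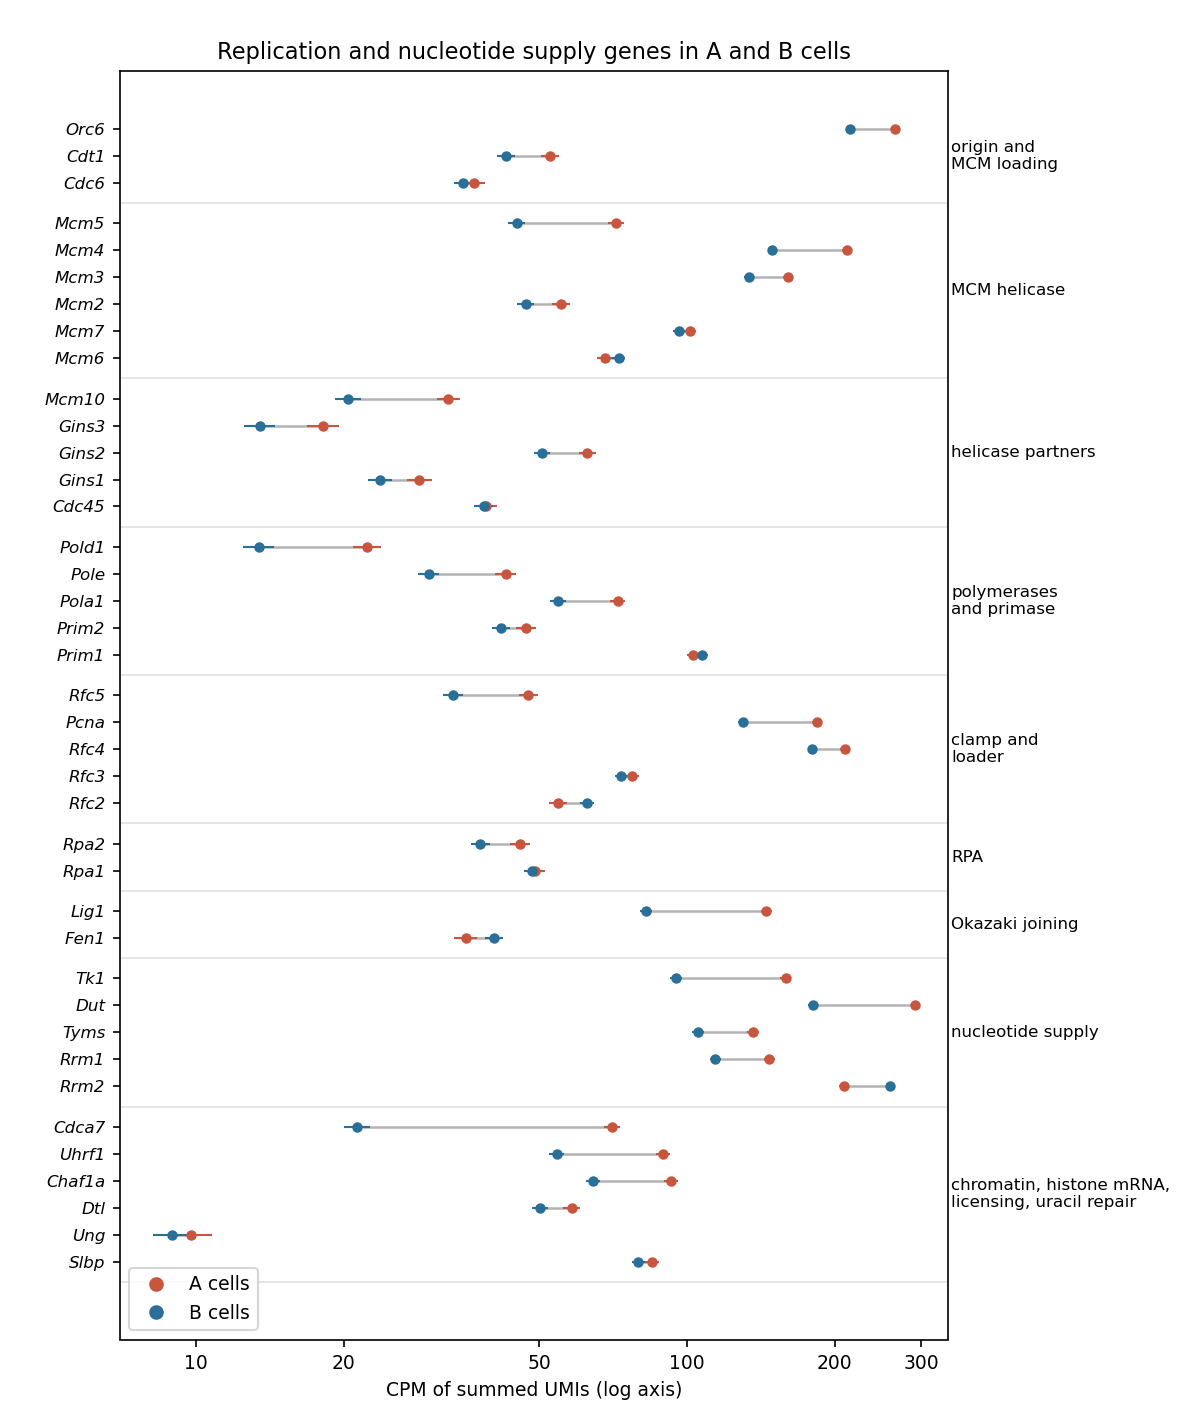
CPM of summed UMIs for each of the 39 genes in A cells (red) and B cells (blue) on a log axis, grouped by complex, with bars for the 95% Poisson interval. Most red points lie to the right of the blue ones, Cdca7 has the widest gap, and Rrm2, Rfc2, Fen1, Mcm6 and Prim1 are ordered the other way.

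Among genes that license origins, Orc6, the smallest subunit of the origin recognition complex, was one of the most abundant of all, at 265 CPM in A (interval 260.1 to 270.2) and 215 CPM in B (211 to 219). Cdt1, which brings MCM to the origin, had 52.6 and 42.8 CPM. Cdc6, the loading ATPase, had 36.9 CPM (35.1 to 38.8) and 35.0 CPM (33.5 to 36.7), and its ratio of 0.07 had an interval that held 0. Under the stricter cell filter it was -0.079. Together these 3 genes had 355 and 293 CPM, a log2 ratio of 0.28.

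The 6 genes of the MCM ring had 669 and 544 CPM in all, a log2 ratio of 0.30, though the proteins sit in the ring in equal numbers. Their levels spread widely: in A cells Mcm4 stood at 212 CPM and Mcm2 at 55.5 CPM. UMIs of a 3′ library count molecules and were not scaled by length, but capture can differ between genes. The ratios also differed within the ring. Mcm5 had 71.7 CPM (69.1 to 74.4) in A and 45.0 CPM (43.2 to 46.8) in B, a log2 ratio of 0.67. Mcm4 followed at 0.50, Mcm3 at 0.26, Mcm2 at 0.24 and Mcm7 at 0.08. Mcm6 went the other way, with 68.0 CPM (65.5 to 70.6) in A and 72.5 CPM (70.3 to 74.9) in B, a log2 ratio of -0.09. The order changed when the median of the other genes on the same chromosome was subtracted, as described further on. Mcm5 was then at 0.32, Mcm3 at 0.25, Mcm2 at 0.15, Mcm4 at 0.096, Mcm6 at -0.10 and Mcm7 at -0.12.

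Among the partners of the helicase, Mcm10, which helps to start unwinding, had 32.6 CPM (30.9 to 34.4) in A and 20.4 CPM (19.2 to 21.7) in B, a log2 ratio of 0.68. The GINS subunits had ratios of 0.43 for Gins3, 0.30 for Gins2 and 0.26 for Gins1. Cdc45, which completes the active helicase, stood at 39.01 and 38.5 CPM, and the interval of its ratio, from -0.08 to 0.11, held 0. With the chromosome median subtracted, Mcm10 was at 0.12, Gins3 at 0.072, Gins2 at -0.055, Gins1 at -0.29 and Cdc45 at -0.39.

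The 5 genes of the polymerases and primase had 287 and 247 CPM in all, a log2 ratio of 0.22. Pold1, the catalytic subunit of the main lagging-strand polymerase, had 22.3 CPM (20.8 to 23.8) in A and 13.4 CPM (12.4 to 14.4) in B, a log2 ratio of 0.73. Pole, the leading-strand catalytic subunit, had 42.7 and 29.8 CPM, and Pola1, of the polymerase bound to primase, 72.2 and 54.6 CPM. The primase subunits were nearer to even, with a ratio of 0.17 for Prim2 and -0.06 (-0.12 to -0.0018) for Prim1, at 103 and 107 CPM. With the chromosome median subtracted the order changed: Pole was at 0.32, Pola1 at 0.30, Prim2 at 0.16, Pold1 at 0.15 and Prim1 at -0.099.

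Pcna had 184 CPM in A (179.7 to 188) and 130.2 CPM in B (127 to 133), a log2 ratio of 0.50. Its loader is built with Rfc2, Rfc3, Rfc4 and Rfc5, and these did not move alike. Rfc5 had a ratio of 0.51 and Rfc4 of 0.22, Rfc3 stood at 0.07, and Rfc2 was lower in A, with 54.7 CPM (52.4 to 57.0) against 62.6 CPM (60.5 to 64.7), a ratio of -0.19. Of the subunits of the single-strand binding protein RPA, Rpa1 was close to even, with 49.1 and 48.3 CPM, and Rpa2 had 45.7 and 37.9 CPM, a log2 ratio of 0.27 (0.18 to 0.36). Pcna has processed pseudogenes in the annotation, as does Tyms, so both counts are uncertain. Only pseudogenes named after their gene were searched for, so the counts of the other genes are not cleared of such copies.

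The flap nuclease and the ligase that finish Okazaki fragments were ordered in opposite ways. Lig1 had 145 CPM in A (141 to 149) and 82.4 CPM in B (80.02 to 84.9), a log2 ratio of 0.81 and the second highest of the 39. Fen1 had 35.4 CPM (33.6 to 37.3) and 40.4 CPM (38.7 to 42.2), a ratio of -0.19. With the median of the other genes on the same chromosome subtracted, as described further on, both lay towards A, Lig1 at 0.23 and Fen1 at 0.33.

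The 5 nucleotide supply genes held the most UMIs of any group, with 941 CPM in A and 754 CPM in B. Dut, which removes dUTP, was the most abundant gene in A, at 291 CPM (285 to 296) against 180.2 CPM (177 to 184) in B, a log2 ratio of 0.69. Tk1, which salvages thymidine, had 159 CPM (155 to 163) and 95.1 CPM (92.5 to 97.8), a ratio of 0.74, and Tyms, which makes thymidylate, 136 and 105 CPM. Rrm2 was the most abundant gene in B and the lowest ratio of the 39, with 209 CPM (204 to 213) in A and 259 CPM (255 to 263) in B, at -0.31. Rrm1, the other subunit of ribonucleotide reductase, was ordered the other way, with 147 and 114 CPM. The count of Rrm2 over that of Rrm1 was 1.42 in A cells (1.37 to 1.47) and 2.27 in B cells (2.20 to 2.34). With the chromosome median subtracted, Rrm1 was at -0.21 and so on the same side as Rrm2 at -0.44.

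Cdca7, a partner of the chromatin remodeller Hells, had the widest gap, with 70.4 CPM (67.8 to 73.0) in A and 21.3 CPM (20.1 to 22.6) in B, a 3.31-fold difference. Without it the summed log2 ratio was still 0.30. Uhrf1, which guides maintenance DNA methylation, had 89.3 and 54.2 CPM, a log2 ratio of 0.72, and Chaf1a, a histone chaperone at the fork, 92.7 and 64.3 CPM. Dtl, which targets Cdt1 for destruction in S phase, had 58.2 and 50.1 CPM, and Slbp, which binds histone mRNA, 84.6 and 79.6 CPM. Ung, which excises uracil, was the lowest of all, at 9.78 CPM (8.84 to 10.8) and 8.94 CPM (8.16 to 9.79), and its interval held a log2 ratio of 0.

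The ratios varied with the chromosome that carries the gene. On chromosomes 2, 7, 8, 16 and 17 the median ratio of other genes was at least 0.3 on the log2 scale. These 5 chromosomes carry 18 of the 39 genes, all 18 with a higher level in A, beside 85.4% of the other genes there, and 7 of the 8 genes past 1.5-fold. Of the other genes tested on them, 40.0% were past 1.5-fold towards A, against 14.4% on the other chromosomes. Fen1 lies on chromosome 19, whose other genes had a median of -0.52, and its own ratio of -0.19 was above that. DNA was not measured, and the part of the chromosome in these ratios was not tested.

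When the median of the other genes on the same chromosome was subtracted, an alternative chosen after seeing the data, the median of the 39 genes was 0.096, with 22 above 0 and 17 below, beside 4095 of 8195 features with a chromosome above 0. Past 1.5-fold were then 2 genes, Cdca7 at 1.18 and Tk1 at 0.68, both towards A, and 0 towards B, beside 12.7% and 12.8% of all features. Tk1 lies on chromosome 11, where the other genes had a median of 0.06. At the other end were Rrm2 at -0.44, Rfc2 at -0.39 and Cdc45 at -0.39. Dut, on chromosome 2, dropped to 0.14. Pcna, also on chromosome 2, went from 0.50 to -0.053.

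**Figure D2:**
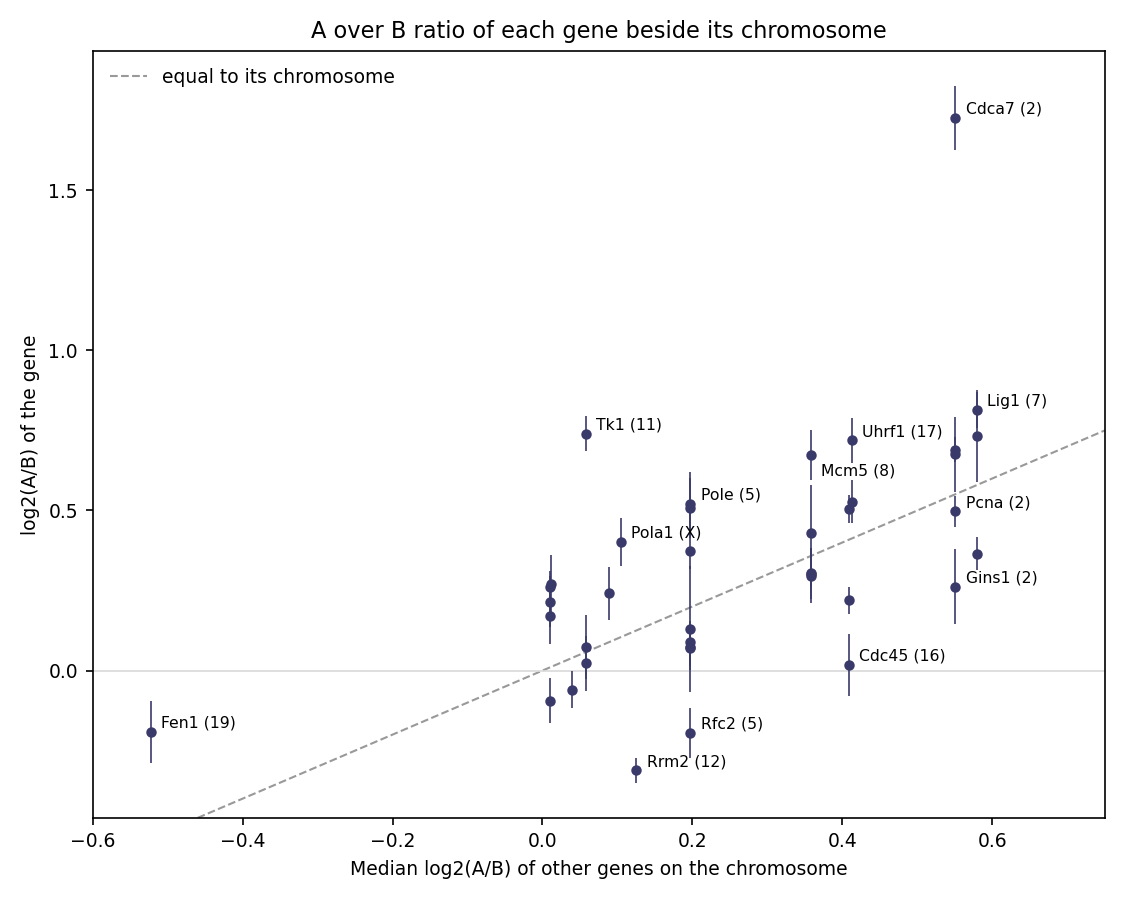
Each of the 39 genes by the median log2 ratio of A over B of the other genes on its chromosome (horizontal) and its own log2 ratio (vertical), with bars for the 95% interval and chromosomes in brackets. The dashed line marks a ratio equal to that of the chromosome, and Cdca7 and Tk1 lie farthest above it and Rrm2 farthest below.

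Within each group the 39 genes varied together from cell to cell. Cells were thinned to 3000 UMIs each, which left 7406 A and 8827 B cells, and were ranked for each gene by the summed UMIs of the other 38 genes. The 25% of cells with the highest sums were then compared with the lowest 25%. In A cells 38 of the 39 genes were at least 1.5-fold higher in the highest 25%, against 4.60% of all features ranked by all 39 genes. In B cells 38 were as well, against 3.58%. The exception was Tk1 in both. The median gene was 2.47-fold higher in A cells and 2.03-fold in B cells, and all 39 intervals lay above a log2 ratio of 0 in both groups, against 17.0% of all features in A cells and 15.2% in B cells. None of the 39 lay below 0, against 18.8% and 11.7% of all features.

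These ends are ranges of a score and not cell types. In A cells the highest 25% had 15 to 33 UMIs of the 39 genes and the lowest 0 to 7, and 390 and 411 cells had exactly the score at each limit. In B cells the ranges were 12 to 30 and 0 to 6, with 540 and 720 cells at the limits. The highest 25% were shallower before thinning, with a median of 4386 against 4972 UMIs in A and 5093.5 against 5836 UMIs in B. They were also lower in a list of 40 G2/M genes, at 3792 against 5351 CPM in A and 3256 against 4663 CPM in B. The part of depth in the ratios was not tested.

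Cdc6, Ung and Uhrf1 had the widest range between the ends in both groups. Cdc6 had 74.6 CPM in the highest and 10.6 CPM in the lowest 25% of A cells, a log2 ratio of 2.81 (2.41 to 3.23), and 61.8 and 16.8 CPM in B cells, a ratio of 1.88 (1.58 to 2.20). Ung, though scarce, had ratios of 2.41 (1.75 to 3.14) and 2.56 (1.83 to 3.37). Uhrf1 had 2.10 and 1.93. Dtl followed with 1.79 and 1.56, and Mcm10 had 1.87 in A cells and 1.02 in B cells. At the other end, Tk1 was lowest in both groups, at 0.53 (0.39 to 0.67) in A and 0.33 (0.16 to 0.49) in B. The next lowest in A cells were Rfc5 at 0.60, Cdca7 at 0.65, Rfc2 at 0.79 and Rfc4 at 0.85. In B cells they were Rfc4 at 0.59, Rrm1 at 0.64 and Dut at 0.65, while Rfc5 was at 0.76 and Cdca7 at 0.82.

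The range was larger in A cells for 35 of the 39 genes, against 46.5% of all features. For 9 genes (Mcm3, Mcm10, Pcna, Rrm2, Rfc4, Cdc6, Cdt1, Orc6 and Dut) the intervals of the groups did not meet, in each case with the larger value in A. Of all features 2.34% had intervals apart with the larger value in A and 3.50% with the larger value in B. Rrm2 had a log2 ratio of 1.21 (1.08 to 1.34) in A and 0.72 (0.61 to 0.82) in B, and Cdt1 1.57 (1.30 to 1.84) and 0.77 (0.53 to 1.02). The ranking itself drew on more UMIs in A, with a mean of 18.7 in the highest 25% against 14.8 in B, and its part in this was not tested.

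**Figure D3:**
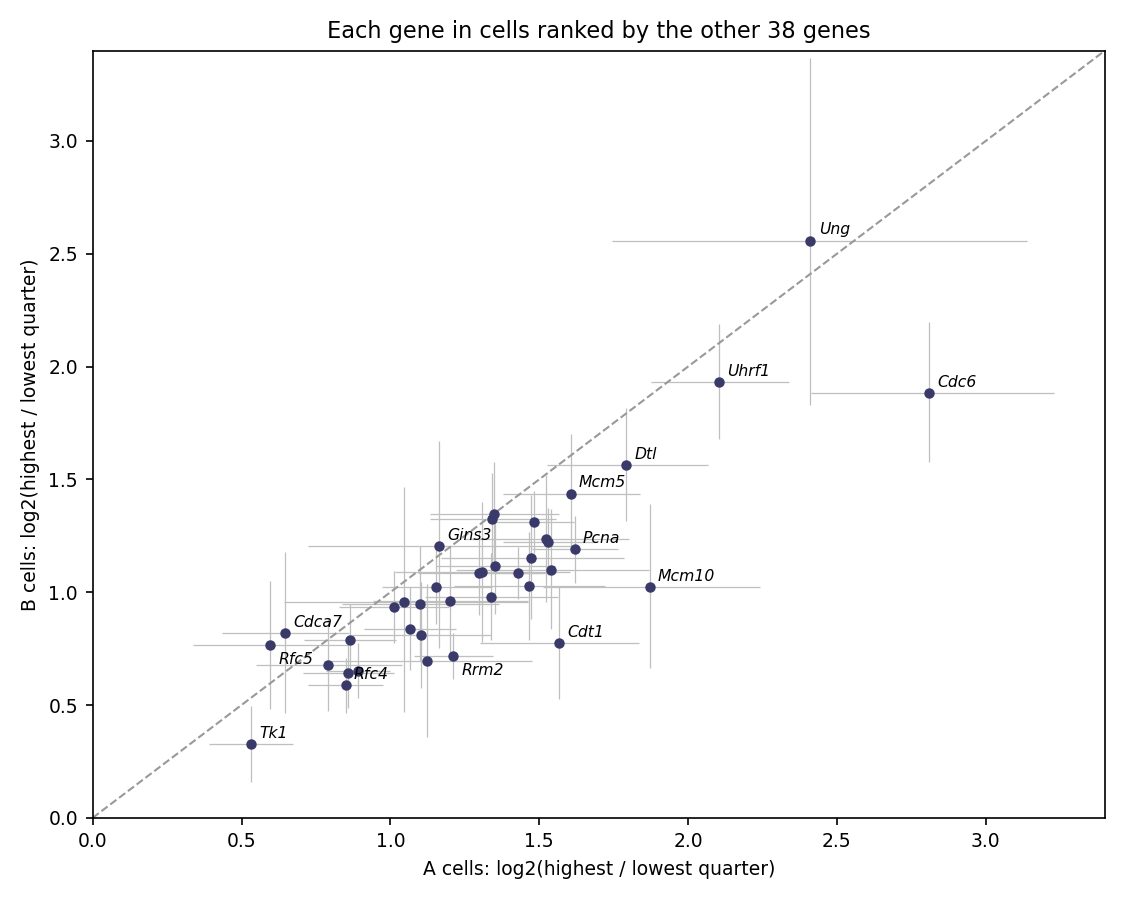
Log2 ratio of each gene between the highest and the lowest 25% of cells ranked by the other 38 genes, in A cells (horizontal) and B cells (vertical), with bars for the 95% interval. All points lie above 0 on both axes, Cdc6, Ung, Uhrf1 and Dtl at the top and Tk1 at the bottom, and 35 of 39 lie under the dashed line of equal ratios.

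Outside the 39, the genes most like them were found by the same ranking, on all 39 genes, among 2850 genes with at least 50 CPM in both groups, ordered by the smaller of the ratios in A and B. The first was Slfn9, with log2 ratios of 2.81 in A and 2.31 in B. Then came linker histone genes H1f1 (2.23 and 2.20), H1f5 (1.84 and 1.90) and H1f4 (1.42 and 1.49), and the core histone gene H2ac20 (1.46 and 1.34). The rest of the first 10 were Fbxo5, which encodes an inhibitor of the anaphase-promoting complex (1.28 and 1.35), Atad5, which unloads Pcna (1.73 and 1.29), Atad2 (1.91 and 1.26), Hells (1.80 and 1.12) and the condensin subunit Ncapd3 (1.23 and 1.09). Ranked cells share the library and the depth, so these values describe the cells and no more.

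Cells were also ordered by their summed UMIs of the 40 G2/M genes, none of which is among the 39. This is an order by the level of that list, and no phase of the cycle was assigned to a cell. In 4 equal bins of cells by that list, from lowest to highest, the 39 genes had 3546, 4654, 3919 and 2995 CPM in A cells. In B cells they had 2932, 3578, 3100.0 and 2405 CPM. The second bin was the highest and the fourth the lowest in both groups. Cells of the first bin were shallower before thinning than those of the fourth, with medians of 4082.5 and 5357 UMIs in A and 4820 and 6342.5 UMIs in B.

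The order was not one of steady decline. With 10 equal bins in place of 4, in the lowest bin of A cells the 39 genes had 2157 CPM, below the 2800.0 CPM of the highest bin, and the peak was 4796 CPM in the third. In B cells the lowest of 10 bins had 2126 CPM, the highest 2261 CPM, and the peak was 3649 CPM in the fourth. The comparison of the ends therefore reversed with the finer bins: the log2 ratio of lowest over highest was 0.24 with 4 bins and -0.38 with 10 in A cells, and 0.29 and -0.088 in B cells. In A cells it was 0.061 when cells were thinned to 2000 UMIs, and 0.48 under a stricter cell filter. In B cells the stricter filter gave 0.43.

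Single genes separated clearly along this order. Ung went from 18.9 CPM in the first of 4 bins to 1.26 CPM in the fourth in A cells, and from 15.7 to 1.06 CPM in B cells. Cdc6 went from 61.7 to 9.004 CPM in A and from 52.3 to 14.1 CPM in B, Cdt1 from 70.9 to 22.0 CPM and from 54.7 to 27.7 CPM, and Dtl from 83.5 to 33.1 CPM and from 76.9 to 25.5 CPM. All 4 had their lowest level in the fourth bin in both groups. Tk1 went the other way, from 105 to 189 CPM in A and from 60.6 to 116 CPM in B. It was the sole gene of the 39 with its highest value in the fourth bin in both groups, but by a small margin. The bin just before had 183 CPM in A and 114 CPM in B. With 10 bins, Tk1 was highest in the last bin in A cells, at 195 CPM. In B cells the last bin had 111 CPM (98.4 to 124), below the 118 CPM (105 to 132) of bin 8, with intervals that overlap. Rfc5 had 31.3 CPM in the first bin of A cells and 52.6 CPM in the fourth, and 23.7 and 34.6 CPM in B. The sizes depend on the bins. Between the ends of 10 bins, Cdt1 went from 39.6 to 20.3 CPM in A and from 46.1 to 20.8 CPM in B. Dtl went from 48.6 to 29.7 CPM and from 57.4 to 25.3 CPM, and Rfc5 from 18.9 to 59.9 CPM and from 13.2 to 31.0 CPM.

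Counted over the 39, 13 genes in A cells were at least 1.5-fold higher in the first bin than in the fourth, against 5.79% of all features, and 14 were in B cells, against 2.89%. Of these, 11 were shared by the groups. In the other direction there were 2 in A, Tk1 and Rfc5, against 4.39% of features, and 1 in B, Tk1, against 3.92%. These counts hold for 4 bins. From the lowest to the highest of 10 bins, Rfc4 went from 91.8 to 207 CPM in A and from 91.0 to 181 CPM in B. Rrm1 went from 57.1 to 156 CPM in A and from 70.2 to 107 CPM in B, so both were then past 1.5-fold. By intervals alone, 22 genes were higher in the first bin in A cells and 22 in B cells, 21 of them in both, against 22.7% and 18.5% of all features. In the other direction 8 and 6 genes were higher in the fourth bin, against 14.7% and 13.0% of all features, a share near the background. Of these, Tk1, Rfc4, Rfc5, Rrm1, Rrm2 and Tyms were higher there in both groups. The interval counts too are of 4 bins, and the summed ratio of the ends reversed with 10, so their balance depends on the bins.

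Highest in the second bin were 34 of the 39 genes in A and 27 in B, 25 of them in both. Of all features 22.1% were highest there in A cells and 21.9% in B cells.

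**Figure D4:**
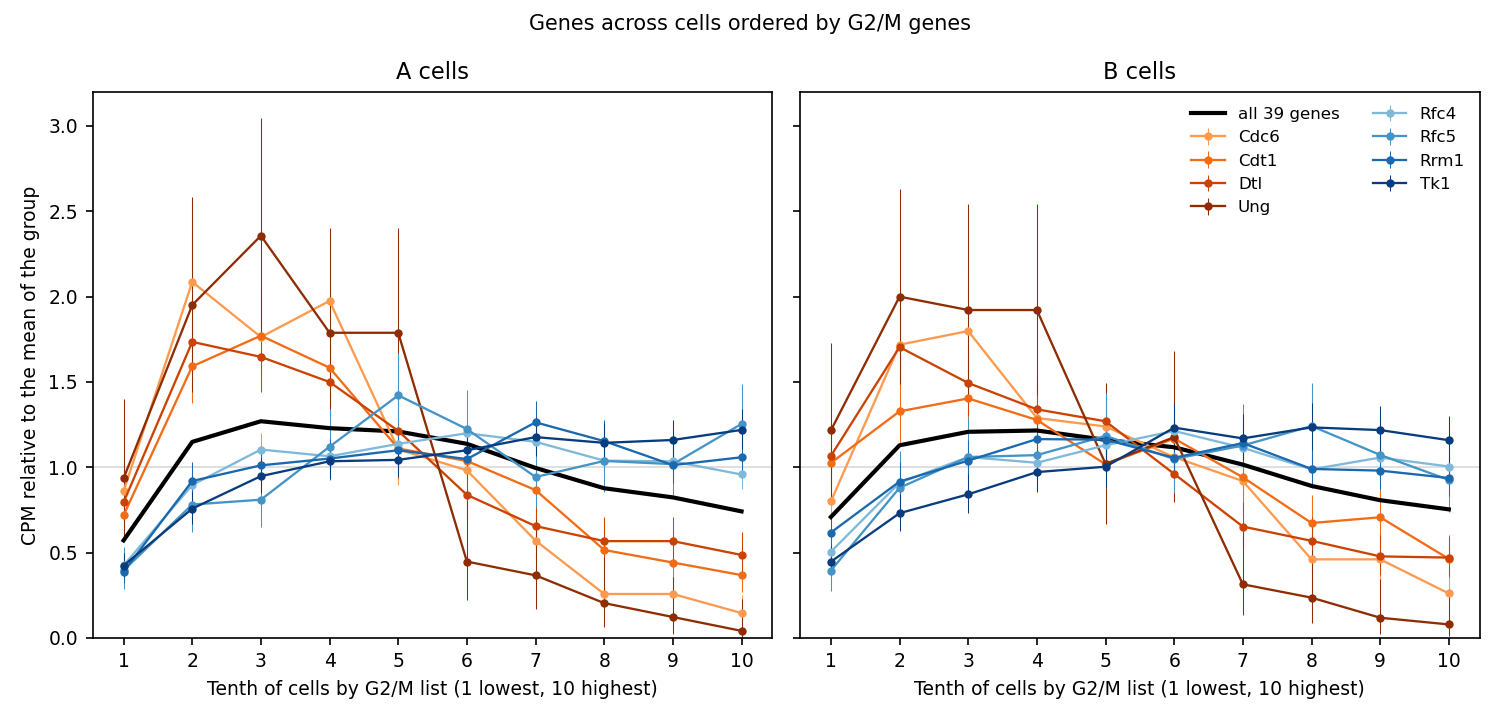
CPM of single genes and of all 39 (black) in 10 equal bins of the A cells and B cells ordered by the G2/M list, relative to the mean of the group, with bars for the 95% interval. The 4 genes with the highest (Cdc6, Cdt1, Dtl, Ung; orange) and lowest (Rfc4, Rfc5, Rrm1, Tk1; blue) mean log2 ratio, over A and B cells, of the first over the fourth of 4 bins were picked with their values known. The orange lines peak early and end lowest, and the blue lines start lowest and climb to about 1.

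The higher level in A cells was seen at each step of this order. The summed ratio of A over B was 1.21-fold in the first of 4 bins (0.27 on the log2 scale), 1.30-fold in the second (0.38), 1.26-fold in the third (0.34) and 1.25-fold in the fourth (0.32). Of the 39 genes 34, 35, 32 and 31 had a higher level in A in the first to the fourth bin, against 61.3%, 61.8%, 60.7% and 60.9% of all features. Rrm2 was lower in A in all 4, at -0.42, -0.20, -0.31 and -0.47, and Cdca7 higher in all 4, from 1.44 to 1.80. The bins were made within each group, and the list itself was higher in A than in B, at 10176 against 8334 CPM in the fourth bin.

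Cdkn1a encodes an inhibitor of the kinases that start S phase, and it was seen mainly in B cells. Of the 8827 thinned B cells, 592 had a Cdkn1a UMI. The 39 genes had 3273 CPM (3189 to 3358) in them and 2984 CPM (2963 to 3006) in the rest, a log2 ratio of 0.13 (0.094 to 0.17). It was 0.066 with cells thinned to 2000 UMIs. None of the 39 genes was past 1.5-fold in either direction, with 1.04% of all features higher and 2.76% lower. By intervals 9 genes were higher in cells with the UMI, among them Mcm3, Mcm4, Mcm5, Pcna, Cdc6 and Cdt1, and 1, Tk1, was lower. Of all features 4.49% were higher and 4.60% lower by the same measure. Cells with the UMI were lower in the G2/M list, at 3438 against 4305 CPM. Within 4 bins of that list the log2 ratio was 0.11 (0.031 to 0.18), -0.052 (-0.11 to 0.011), 0.18 (0.11 to 0.26) and 0.11 (-0.013 to 0.23), so the interval held 0 in the second and the fourth bin.

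Other genes of replication and nucleotide supply, 60 in all, of which 55 had a mean of at least 10 CPM, were higher in A by at least 1.5-fold in 11 cases and higher in B in 2. Among all features the shares were 21.8% and 11.8%. Their median log2 ratio was 0.30, the same as that of the 39. After centring, 4 were past 1.5-fold towards A and 3 towards B, beside 15.3% and 15.8% of all features. With the chromosome median subtracted, 3 were past it towards A and 2 towards B, beside 12.7% and 12.8%.

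Of the origin genes, Orc5 had 14.998 and 8.22 CPM, Ticrr 18.1 and 10.8 CPM, Orc4 52.3 and 33.4 CPM, and Dbf4, the activator of the kinase Cdc7, 139 and 92.7 CPM. Rfc1, the large subunit of the clamp loader, had 183 CPM in A and 121 CPM in B, a log2 ratio of 0.59. Pold4, the small subunit of the polymerase that Pold1 belongs to, was the sharpest exception, with 18.9 CPM (17.6 to 20.3) in A and 103 CPM (100.5 to 106) in B, a log2 ratio of -2.45. With the chromosome median subtracted, Pold4 was at -1.93, Orc5 at 0.67, Dbf4 at 0.39, Rfc1 at 0.40, Ticrr at 0.16 and Orc4 at 0.097, so that Orc5 and Pold4 alone of these 6 stayed past 1.5-fold.

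The chromatin and the nucleotide list each had a median log2 ratio of 0.14, close to the 0.16 of all features, and the genes named here are those past 1.5-fold. Of the chromatin genes, Chaf1b, a partner of Chaf1a, had 58.0 and 35.1 CPM, and Asf1b 61.7 and 40.0 CPM. Of the nucleotide genes, Dctd, which feeds thymidylate synthesis, had 39.5 CPM in A and 17.1 CPM in B, a log2 ratio of 1.21. The purine synthesis genes Ppat (127 and 73.4 CPM) and Paics (188 and 119 CPM) were higher in A, as was Samhd1, which degrades deoxynucleotides (30.6 and 20.2 CPM). Impdh1, of guanine nucleotide synthesis, was higher in B, at 19.8 and 31.8 CPM. With the chromosome median subtracted, Chaf1b (0.31), Asf1b (0.27), Paics (0.46) and Samhd1 (0.045) were no longer past 1.5-fold.

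Among 22 E2F, cyclin and CDK genes, 21 had a mean of at least 10 CPM, of which 6 were at least 1.5-fold higher in A and 4 higher in B, beside 21.8% and 11.8% of all features. With the chromosome median subtracted these counts were 2 and 5, beside 12.7% and 12.8% of all features. With a minimum of 50 CPM, which 7 of the genes passed, they were 1 and 1, beside 16.1% and 11.3%. Higher in A were Rbl2, a relative of the retinoblastoma gene (26.5 and 8.51 CPM), the CDK inhibitor Cdkn1b (66.3 and 28.1 CPM), the repressor E2f8 (39.5 and 19.8 CPM) and Ccne1, the cyclin that drives entry into S phase (51.0 and 26.8 CPM). E2f8 and Ccne1 lie on chromosome 7 and were at 0.42 and 0.35 on the log2 scale with its median subtracted. Higher in B were Cdkn1a (2.68 and 24.4 CPM), E2f2 (8.27 and 21.1 CPM), Ccnd1 (274 and 506 CPM) and E2f7 (20.01 and 30.4 CPM). Among these named genes, some that promote and some that restrain S phase were found on both sides. This holds only without the subtraction, since Ccne1 was then no longer past 1.5-fold towards A.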

How the data were processed

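Single-cell RNA of 1 pooled library was read from the deposited matrix of whole-number UMI counts, written by Cell Ranger 8.0.1 per the file headers. The genome build was GRCm39 per the submitters' processing notes, and the annotation is not given in the sources used here. The authors deposited no normalized values. Symbols and barcodes came from the deposited feature and barcode lists, which hold names and no measurement.

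Kept were barcodes with 2000 or more UMIs, 1000 or more genes and a mitochondrial share of 15% or less. No doublet caller was run: the marker rule leaves out 643 cells with UMIs of both sets, and pairs of like cells remain. Free RNA was not corrected for. CPM came from UMIs summed per group, with exact Poisson intervals, and ratios with exact binomial intervals on both sums. Cells for rankings were thinned to 3000 UMIs with a fixed seed, and ties were broken at random. A call is a size of 1.5-fold. Chromosome names of 32012 of 33696 features came from GENCODE M21, whose build differs from the counts, so no coordinate was taken from it.

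The 39 genes and the other lists were chosen with earlier results of these data known. Named were all 39 genes, the 10 others most like them, and up to 4 genes in each direction of every other list. The steps were tested on simulated data. Python 3.11.15, numpy 2.4.6, scipy 1.17.1 and pandas 2.3.3 were used. Alternatives were other cell filters and marker rules, leaving out the deepest 10% of cells, thinning, other scalings, minimum levels and shares of cells compared.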

Additional observations from a re-analysis of the deposited data

Results flagged for a closer look

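Cells that passed the filter but belonged to neither group were not used in the comparisons. Their level is given for completeness, since any large set of dividing cells would carry UMIs of the 39 genes. The 3966 cells with under 2 marker UMIs of either set had 3344 CPM (interval 3317 to 3372) and a median of 4111.5 UMIs. The 643 cells with marker UMIs of both sets had 3342 CPM (3292 to 3393) and a median of 7911 UMIs. Both values lie between the 2951 CPM of B cells and the 3686 CPM of A cells.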

How the results depend on the processing

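No paired analysis was possible because there is 1 library and no replicate. None of the settings below speaks to how cultures vary. Where no cause is given, the cause was not tested. Subtracting the chromosome median was chosen after seeing the data. Of 112 summary values under the alternatives, 86 stayed within their interval or within 1.5 times their count.

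The summed log2 ratio of A over B was 0.30 with strict cells, 0.34 with the stricter marker rule, 0.33 with cells thinned, 0.33 without mitochondrial and ribosomal protein genes in the totals, and 0.17 after centring, where the median gene was 0.14. Centring left 3 of the 39 genes and 4 of the other replication genes past 1.5-fold towards A. With a minimum of 50 CPM, 5 of 28 other replication genes were past 1.5-fold towards A and 1 towards B, and 1 and 1 of 7 E2F and cyclin genes, beside 16.1% and 11.3% of all features. Subtracting the chromosome median gave a median gene of 0.096, and 2 of the 39, 3 of the other replication genes and 2 of the E2F and cyclin genes past 1.5-fold towards A, with 0, 2 and 5 towards B, beside 12.7% and 12.8% of all features.

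Of 312 ratios of single genes under settings that can change them, 235 stayed within their interval and 25 changed sign. Centring subtracts the same value from every gene, so its sign changes are the genes with a ratio between 0 and 0.16. In 11 of the 25 the interval had held 0 from the start: Cdc45, Cdc6 and Ung with strict cells, Cdc45 with the stricter marker rule, Cdc45, Cdc6, Rpa1 and Ung with centring, and Cdc45, Rpa1 and Ung with the chromosome median. The other 14 were, with centring, Mcm7 (-0.080), Rfc3 (-0.084) and Slbp (-0.066). With the chromosome median they were Mcm7 (-0.12), Pcna (-0.053), Fen1 (0.33), Rrm1 (-0.21), Gins1 (-0.29), Gins2 (-0.055), Rfc3 (-0.13), Rfc4 (-0.19), Cdt1 (-0.062), Orc6 (-0.056) and Slbp (-0.11).

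With the highest and lowest 10% of cells in the ranking by the other genes, the median log2 ratio was 1.80 in A and 1.40 in B, as narrower ends are compared. For the G2/M list, the log2 ratio of lowest over highest in A was 0.29 with 3 bins, -0.38 with 10, 0.061 at 2000 UMIs, 0.48 with strict cells and 0.20 with the stricter marker rule. In B it was -0.088 with 10 bins and 0.43 with strict cells. The Cdkn1a ratio was 0.066 at 2000 UMIs.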
